A study of Mus musculus with 30 samples.

Results

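The nuclear-encoded respiratory chain genes are 82 of the 24421 genes listed for the series. They were chosen by name alone: gene symbols that begin with Ndufa, Ndufb, Ndufc, Ndufs or Ndufv and a number, the Sdh genes a to d, all Uqcr genes, the Cox genes 4 to 8 with a subunit letter a to c, and all Atp5 genes, without pseudogenes and antisense genes. They fell into 35 genes of complex I, 4 of complex II, 8 of complex III, 18 of complex IV and 15 of complex V, the ATP synthase. A further 2, Atp5s and Atp5sl, carry the Atp5 name but encode no subunit. The name rule leaves out Cox4i1, Ndufab1 and a few other subunits, which are described apart.

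The respiratory chain sits in the inner mitochondrial membrane. Complexes I and II pass electrons from NADH and succinate to ubiquinone, complex III passes them to cytochrome c, and complex IV passes them to oxygen. The proton gradient built on the way drives complex V, and neurons spend much of the ATP on pumping ions. A few core subunits come from the mitochondrial genome, of which the tables list 0 genes, so the values below are of nuclear genes only.

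Polyadenylated RNA was sequenced from 28 cortical brain tumours labelled glioblastoma and from 2 samples of normal cortex, labelled WT, of mice at postnatal day 70. The tumour groups are named by the construct given: mCherry (a fluorescent protein, 3 libraries), wild-type EGFR, the epidermal growth factor receptor (3), and the EGFR variants A289I (5), A289V (4), R108G (3), R108K (4), R222C (3) and T263P (3), each a single amino acid change. All tumours were bulk tissue, and how they were induced, which promoter drove the construct, the strain and the sex were not given in the sources used here. In bulk tissue, fewer cells of a type and less RNA per cell cannot be told apart. With 1 library per sample, p-values measure the spread between these samples.

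Levels are given as RPM, which here are the deposited size-factor-normalised counts divided by the same constant, 10.2638, in every library. Libraries held 2784129 to 24475215 reads, and R108K 1 was the shallowest, where 1 read is 0.383 RPM. Of the 82 members, 80 were tested, as part of the 15824 genes that reached 1 RPM in 3 or more libraries. Library numbers fell in 3 ranges (below 20, 20 to 37, above 37), and both cortex libraries lie in the middle one. The 25 genes of a neuron list had a mean log2(RPM + 1) of 8.99 and 8.93 in the cortex libraries, 8.14 and 8.45 in A289V 1 and 2, and 2.55 to 7.16 in the other 26 tumours. Between tumours and cortex all 25 neuron genes were lower, all 10 dividing-cell genes and all 8 oligodendrocyte precursor genes were higher, and 6 of 10 microglia and macrophage genes were higher. Among all genes, 24.5% were lower and 22.9% higher.

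Motifs of known respiratory gene regulators, which the name rule did not use, stood in a larger share of the members' promoters than of all genes' promoters. All genes here means those with a listed promoter, not only the genes tested. Promoters of 5 members are printed because their genes mark the ends of the results below. NRF1, ETS factors such as GABP, and YY1 are textbook regulators of respiratory genes. In windows from 250 bases before to 50 after the start (RefSeq, GRCm38.p6; 69 members matched), the NRF1 core GCGCANGCG stood in 20 members (28.99%), against 7.03% of 27025 genes. The ETS core CCGGAAG stood in 16 members (23.2% against 9.93%) and the YY1 core AAGATGGCG in 8 (11.6% against 1.64%), each on either strand. At least 1 of these 3 motifs was found in 36 members (52.2% against 16.5%), while the TATA box core TATAAA was found in 7 (10.1% against 15.7%). Stretches from 120 bases before to 30 after the start are shown 5′ to 3′ on the gene's strand, with NRF1 or ETS cores in capitals, overlapping matches on both strands included.
Sdha (chr13:74350211-74350360, minus strand): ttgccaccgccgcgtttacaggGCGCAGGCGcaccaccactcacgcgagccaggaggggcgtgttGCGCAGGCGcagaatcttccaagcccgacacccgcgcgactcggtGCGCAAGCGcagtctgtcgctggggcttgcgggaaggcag
Sdhb (chr4:140961151-140961300, plus strand): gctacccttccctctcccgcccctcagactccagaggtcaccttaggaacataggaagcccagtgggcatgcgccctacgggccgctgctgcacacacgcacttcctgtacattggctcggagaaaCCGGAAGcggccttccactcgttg
Cox8a (chr19:7217587-7217736, minus strand): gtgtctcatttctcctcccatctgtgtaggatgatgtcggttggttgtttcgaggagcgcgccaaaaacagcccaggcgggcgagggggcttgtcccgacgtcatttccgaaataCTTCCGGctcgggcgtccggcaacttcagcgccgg
Atp5g2 (chr15:102671018-102671167, minus strand): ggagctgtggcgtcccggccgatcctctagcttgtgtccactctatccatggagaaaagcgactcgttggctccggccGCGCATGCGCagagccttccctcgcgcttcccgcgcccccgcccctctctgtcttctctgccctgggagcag
Atp5g3 (chr2:73911297-73911446, minus strand): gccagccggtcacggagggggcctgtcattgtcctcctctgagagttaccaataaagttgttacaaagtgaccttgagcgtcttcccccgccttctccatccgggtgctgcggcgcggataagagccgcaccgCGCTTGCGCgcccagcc
Sdha had 3 NRF1 cores, at 98, 55 and 10 bases before the start, and Sdhb had 1 ETS core. Cox8a had 2 ETS cores, the second of which lies beyond the stretch shown. Atp5g2 and Atp5g3 each held the NRF1 core, in Atp5g2 as overlapping matches on both strands. A match describes letters and is not evidence of binding.

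Tumours against normal cortex was the comparison in which the respiratory chain genes differed most. The summed level of the members was 21358 and 22062 RPM in the cortex libraries, and 9927 (A289I 2) to 18614 RPM (R108K 1) in the tumours, with a median of 11678. No tumour reached the cortex level. In the fit over all libraries (limma on log2(RPM + 1), Benjamini-Hochberg adjusted p below 0.05), 61 of 80 members were lower in the mean of the 8 tumour groups, 0 were higher and 19 did not pass. Of all 15824 genes, 24.5% were lower and 22.9% higher. The members' median log2 fold change was -0.82, against 0.03 over all genes. For 43 members, every one of the 28 tumours lay below both cortex libraries, which was so for 14.8% of all genes. The cortex libraries have the largest totals after the deposited scaling, so the comparison was also run scaled to library totals, which moved the median log2 fold change of all genes from 0.03 to 0.24. On that scale 48 members were lower and 1, Atp5g2, higher (19.4% of all genes were lower), with a members' median of -0.58, and every tumour lay below both cortex libraries for 29 members (10.7% of all genes). The summed level was then 18403 and 18813 in cortex and 10477 to 17442 in tumours. Levels and fold changes below are on the deposited scale unless library totals are named. mCherry tumours alone gave 54 lower and 0 higher of 80, with a median log2 fold change of -0.89, where 20.5% of all genes were lower and 17.8% higher. Scaled to library totals, 35 were lower and 0 higher (14.7% of all genes were lower).

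**Figure D1:**
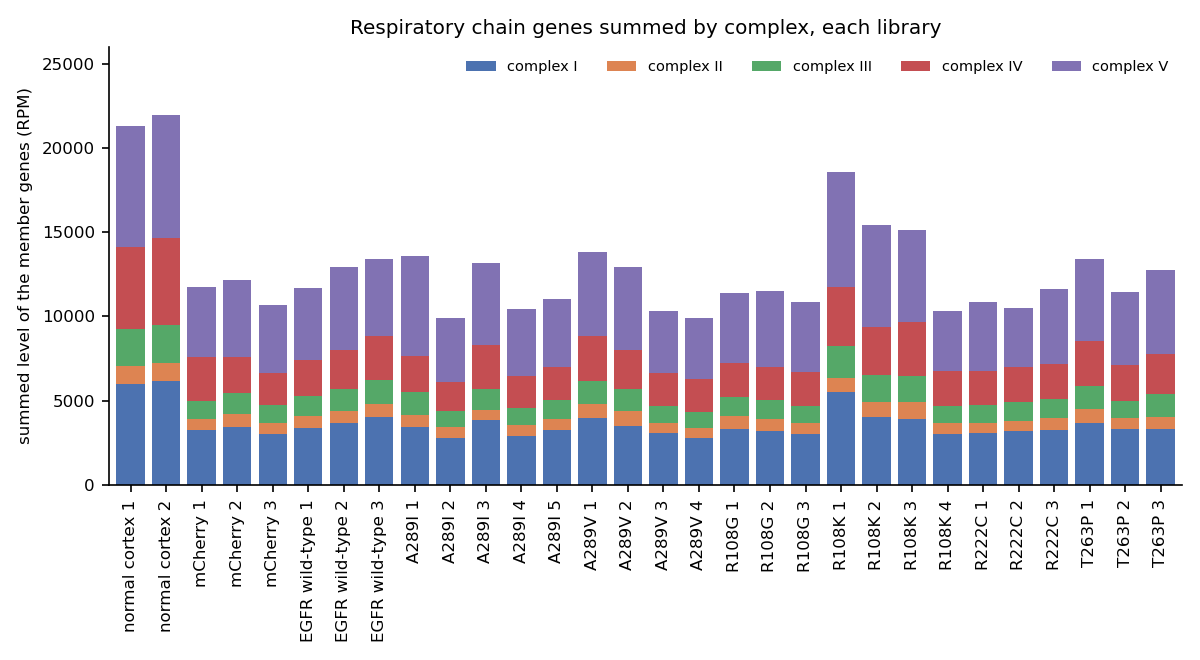
Summed level of the member genes of each complex (RPM, stacked bars, 1 bar per library, grouped by construct). The cortex bars reach 21358 and 22062 RPM, the tallest tumour bar is R108K 1 at 18614, and the other tumours lie between 9927 and 15437.

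**Figure D2:**
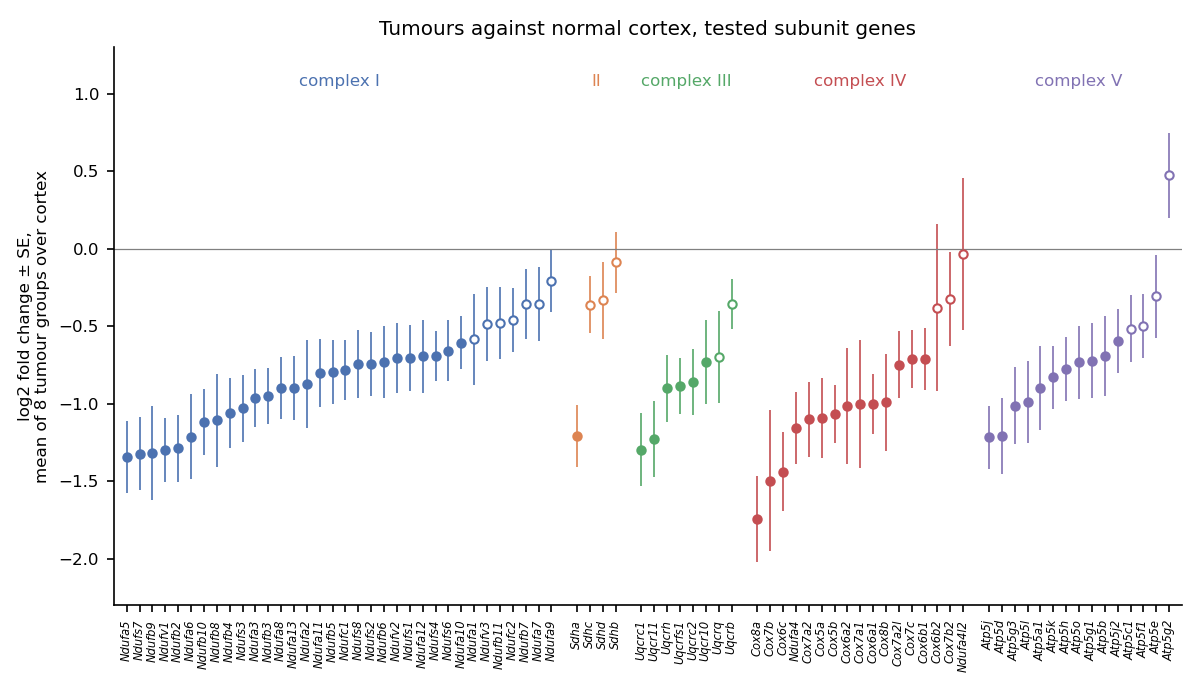
Log2 fold change on the log2(RPM + 1) scale, mean of the 8 tumour groups over cortex, with its standard error, for the tested genes of complexes I to V in order of size. Filled points passed an adjusted p of 0.05 (limma), open points did not, and on this deposited scale Atp5g2 alone lies above 0; scaled to library totals, Sdhb, Ndufa9 and Ndufa4l2 were also positive.

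Complex I, the NADH dehydrogenase that takes up most electrons, had 27 of 34 tested genes lower in tumours, with a median log2 fold change of -0.79. Its summed level was 5973 and 6160 RPM in cortex and 2751 to 5504 RPM in tumours. Ndufv1, whose product binds the flavin that oxidises NADH, was 295 and 295 RPM in cortex and 85.2 to 193 RPM in tumours (median 123). Its log2 fold change was -1.30 ± 0.21 (SE, adjusted p = 2.3e-05), and no tumour reached either cortex library. Ndufa5, an accessory subunit, had the largest fall in the complex: 155 and 160 RPM in cortex and 41.1 to 113 RPM in tumours, a log2 fold change of -1.34 ± 0.23 (adjusted p = 5.8e-05). Ndufs7, an iron-sulphur subunit, fell by 1.32 on the log2 scale, from 151 and 156 RPM to a tumour median of 60.1 RPM. Ndufs1, the largest iron-sulphur subunit, fell less, from 171 and 163 RPM to 69.6 to 152 RPM (log2 fold change -0.70 ± 0.21, adjusted p = 0.0079). Its call was lost without either cortex library, with the neuron list as a covariate and with library totals (adjusted p up to 0.205), while its log2 fold change stayed between -0.82 and -0.46.

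The 7 complex I genes that did not pass were Ndufa1, Ndufa7, Ndufa9, Ndufb7, Ndufb11, Ndufc2 and Ndufv3, with log2 fold changes from -0.59 (Ndufa1) to -0.21 (Ndufa9). Ndufa9 was 145 and 134 RPM in cortex and 84.1 to 182 RPM in tumours, so that the groups overlapped. Scaled to library totals, its tumour median of 124.1 lay between the cortex values of 125 and 114.1. Per kilobase of transcript (the lower median of a gene's annotated coding transcripts), the highest mean level over all libraries in complex I was that of Ndufb8, 278 RPM per kilobase, and the lowest that of Ndufs1, 42.1 RPM per kilobase. Ndufs5, another accessory subunit, had 0 reads in all 30 libraries, which allows up to 0.00853 RPM over all reads. Of its 50-base words, 35.6% also occur in transcripts of BC002163, to which 17344 reads were assigned, and how reads shared by genes were counted is not given in the sources used here.

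Complex II, succinate dehydrogenase, links the chain to the tricarboxylic acid cycle, and its 4 genes did not move together. Sdha, the flavoprotein that oxidises succinate, was 537 and 502 RPM in cortex and 167 (R108K 1) to 445 RPM (A289V 2) in tumours, with a median of 215. Its log2 fold change was -1.21 ± 0.20 (adjusted p = 3e-05), and all 28 tumours lay below both cortex libraries. Sdhb, the iron-sulphur subunit that receives the electrons from Sdha, was 217 and 224 RPM in cortex and 127 to 374 RPM in tumours, with a median of 200.4. Its log2 fold change was -0.09 ± 0.20 (adjusted p = 0.74), and the tumours lay on both sides of cortex. Scaled to library totals, its log2 fold change was 0.15. The membrane anchors Sdhc and Sdhd had log2 fold changes of -0.36 ± 0.19 (adjusted p = 0.11) and -0.33 ± 0.25 (adjusted p = 0.28). The call of Sdha was lost with the neuron list as a covariate (log2 fold change -0.64, adjusted p = 0.0999). The difference between Sdha and the other subunits was not tested. Per kilobase of transcript, Sdhc was highest in the complex (190.0) and Sdha lowest (86.6).

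**Figure D3:**
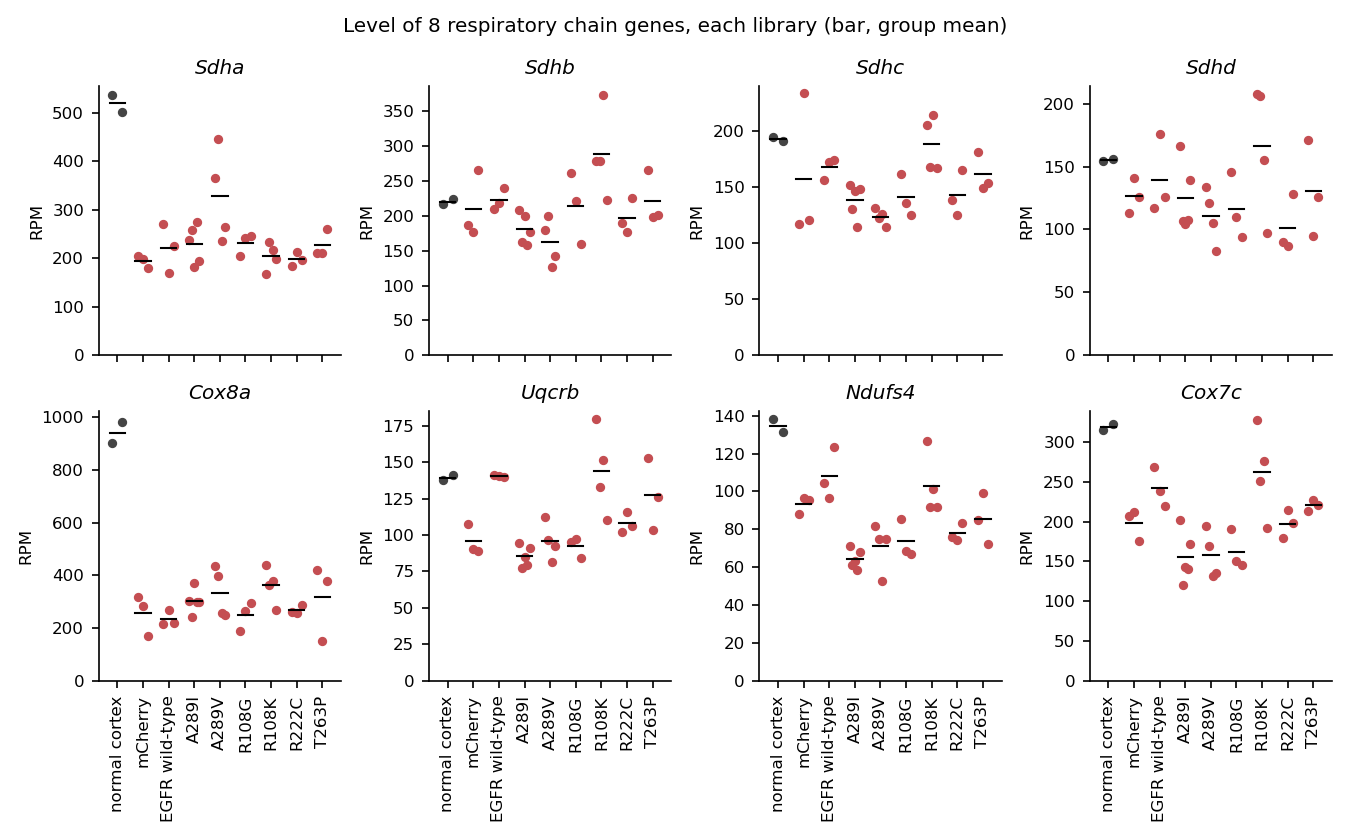
Level (RPM) of the 4 complex II genes, Cox8a, Uqcrb, Ndufs4 and Cox7c, 1 point per library and a bar at the mean of each group. Sdha and Cox8a in cortex lie above every tumour, Sdhb in cortex (217 and 224 RPM) lies inside the tumours' range, and Uqcrb differs among the tumour groups.

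Complex III, which hands electrons from ubiquinol to cytochrome c, had 6 of 8 genes lower, with a median log2 fold change of -0.87. Uqcrc1, a core subunit, was 446 and 466.2 RPM in cortex and 114.9 to 299.7 RPM in tumours, a log2 fold change of -1.30 ± 0.24 (adjusted p = 9.5e-05). Uqcrfs1, the Rieske iron-sulphur protein, was 205 and 226 RPM in cortex and 89.7 to 171 RPM in tumours (log2 fold change -0.89 ± 0.18, adjusted p = 0.00029). For both, every tumour lay below cortex. Uqcrq and Uqcrb did not pass. Uqcrb, a ubiquinone-binding subunit, was 138 and 141 RPM in cortex and 77.6 to 180 RPM in tumours, and its log2 fold change was -0.36 ± 0.16 (adjusted p = 0.067). Uqcrh had the highest mean level per kilobase in the complex, 566 RPM per kilobase, and Uqcrfs1 the lowest, 91.2 RPM per kilobase.

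Complex IV, cytochrome c oxidase, had 14 of 17 tested genes lower and the lowest median log2 fold change of the complexes, -1.001. Cox8a, the widely expressed form of its subunit 8, showed the largest fall of all members on the log2(RPM + 1) scale: 902 and 980 RPM in cortex against 151 to 439 RPM in tumours (median 287). Its log2 fold change was -1.74 ± 0.28 (adjusted p = 2e-05). Every tumour lay far below both cortex libraries, and the call held under every alternative run. The low Cox8b, described below, had a larger fall in the count models (log2 fold change -3.03 in DESeq2, where it did not pass), since adding 1 RPM shrinks changes of low genes. Cox6c fell by 1.44 on the log2 scale (438 and 463 RPM in cortex, 84.0 to 349 RPM in tumours, adjusted p = 7.6e-05). Cox5a, a subunit on the matrix side, was 301 and 311.5 RPM in cortex and 85.8 to 263.3 RPM in tumours (log2 fold change -1.09 ± 0.26, adjusted p = 0.0012). Cox7b had a log2 fold change of -1.497 ± 0.45 (adjusted p = 0.0088) but varied widely, with 411 and 629 RPM in cortex and 81.8 to 465 RPM in tumours. mCherry 1 exceeded the lower cortex library for Cox7b, and the call was lost without cortex 2 or with the neuron list as a covariate (adjusted p up to 0.189).

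Several complex IV subunits exist as a widely expressed and a tissue-restricted isoform. The widely expressed forms Cox6a1, Cox6b1, Cox7a2 and Ndufa4 were lower in tumours, by 1.001, 0.71, 1.10 and 1.16 on the log2 scale. Their rarer relatives were all low in RPM, also in cortex. The muscle-type forms Cox6a2, Cox7a1 and Cox8b were 4.81 and 6.65, 4.47 and 4.10, and 1.38 and 1.41 RPM in cortex. In the tumours they lay at 0.723 to 6.75, 0.754 to 6.13 and 0 to 2.80 RPM. Each passed the test as lower, with log2 fold changes of -1.02, -1.001 and -0.99 on the log2(RPM + 1) scale, which understates changes of low genes. Cox8b reached the filter of 1 RPM in 3 libraries only with both cortex libraries and R108K 2 counted. It entered the test through the group where it was high, so its call is not separate support for a fall. The counts above of 14 complex IV genes, 61 members and, for mCherry alone, 54 members include Cox8b. Without either cortex library Cox8b was not tested. The call of Cox7a1 (adjusted p = 0.048) was lost under 28 of 40 alternatives, and those of Cox6a2 and Cox8b under 6 of 40 and 2 of 36, the neuron list as a covariate among them. That of Cox6b1 was lost under 4 of 40, among them without either cortex library (adjusted p up to 0.105). Cox6b2, Cox7b2 and Ndufa4l2 did not pass. Ndufa4l2, which hypoxia is known to induce, was 3.27 and 3.40 RPM in cortex and 1.07 to 14.0 RPM in tumours, highest in mCherry 3. Cox7a2l, a supercomplex assembly factor that bears a Cox name, was lower by 0.75 on the log2 scale (adjusted p = 0.006), and this call was lost with a term for the 3 library number ranges, with the neuron list as a covariate and without cortex 2 (adjusted p up to 0.26). The testis-type Cox8c had 1 read in all libraries. Per kilobase of transcript, Cox8a was the highest (615) and Cox8b the lowest (1.005) tested gene of the complex.

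Complex V had 11 of 15 genes lower, with a median log2 fold change of -0.73. Atp5b, the catalytic beta subunit and the member with the most reads, was 1785 and 1836 RPM in cortex and 703 to 1763 RPM in tumours, with a median of 1099. Its log2 fold change was -0.69 ± 0.26 (adjusted p = 0.028). On this scale all tumours lay below cortex. Scaled to library totals, cortex was 1538 and 1565.5 and the highest tumour, A289I 1, 1753, with T263P 3 also above cortex. The call was lost with library totals, without either cortex library or with the neuron list as a covariate (adjusted p up to 0.34), while the log2 fold change stayed between -0.83 and -0.45. Atp5j, a subunit of the peripheral stalk, fell by 1.22 on the log2 scale (adjusted p = 3.4e-05). Atp5d, the delta subunit of the rotor stalk, fell by 1.21 (adjusted p = 0.00029). Atp5c1, Atp5e and Atp5f1 had log2 fold changes of -0.52, -0.31 and -0.50 and did not pass. Atp5sl, a complex I assembly factor despite its name, had the second largest fall of the members on the log2(RPM + 1) scale: 52.6 and 58.3 RPM in cortex and 9.35 to 39.3 RPM in tumours (log2 fold change -1.57 ± 0.27, adjusted p = 6e-05). With the neuron list as a covariate it did not pass (adjusted p = 0.176).

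Subunit c, which forms the rotor ring, is encoded by 3 genes with the same mature protein, and these differed in direction. Atp5g3 was 453 and 484 RPM in cortex and 159 to 459.6 RPM in tumours (log2 fold change -1.01 ± 0.25, adjusted p = 0.0017). Atp5g1 was 219.6 and 223 RPM in cortex and 99.2 to 211 RPM in tumours (log2 fold change -0.72 ± 0.24, adjusted p = 0.016), a call lost with the library ranges as a term, with only library numbers 20 to 37, with the neuron list as a covariate, with library totals or without either cortex library (adjusted p up to 0.151). Atp5g2 was 187 and 205 RPM in cortex and 142 to 505.03 RPM in tumours, with a median of 269. On the deposited scale it was the only member with a positive log2 fold change, 0.47 ± 0.27, which did not pass (adjusted p = 0.16), and 21 of 28 tumours lay above both cortex libraries. Scaled to library totals its log2 fold change was 0.71 and passed (adjusted p = 0.022, limma), and with the neuron list as a covariate it was -0.19.

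As a share of the reads of the 3 genes, which no scaling of a library alters, Atp5g2 took 21.8% and 22.5% in cortex and 28.4% (A289V 2) to 55.5% (T263P 1) in tumours, with a median of 41.6%. Atp5g3 took 52.7% and 53.1% in cortex and 23.9% (EGFR wild-type 3) to 49.2% (R108K 2) in tumours. For both genes the 28 tumours and the 2 cortex libraries did not overlap. The mean share of Atp5g2 was 42.2% ± 6.12 (SD, n = 28) in tumours and 22.1% ± 0.52 (n = 2) in cortex. An exact two-sided permutation test over 435 splits gave p = 0.0046 for Atp5g2 and for Atp5g3, the smallest these splits can give, and p = 0.17 for Atp5g1 (0.0069, 0.0069 and 0.17 adjusted over the 3 genes). The smallest p follows from the lack of overlap and adds nothing to it. Because the 3 shares add up to the whole, the results for Atp5g2 and Atp5g3 are not separate. Atp5g2 had the highest mean level per kilobase in complex V (624 on an annotated transcript of 441 bases) and Atp5j the lowest (193). All 50-base words of that Atp5g2 transcript also occur in transcripts of Gm10175, and 56.2% of those of Atp5g1 in other genes, so that both levels are uncertain where shared reads were dropped or split.

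**Figure D4:**
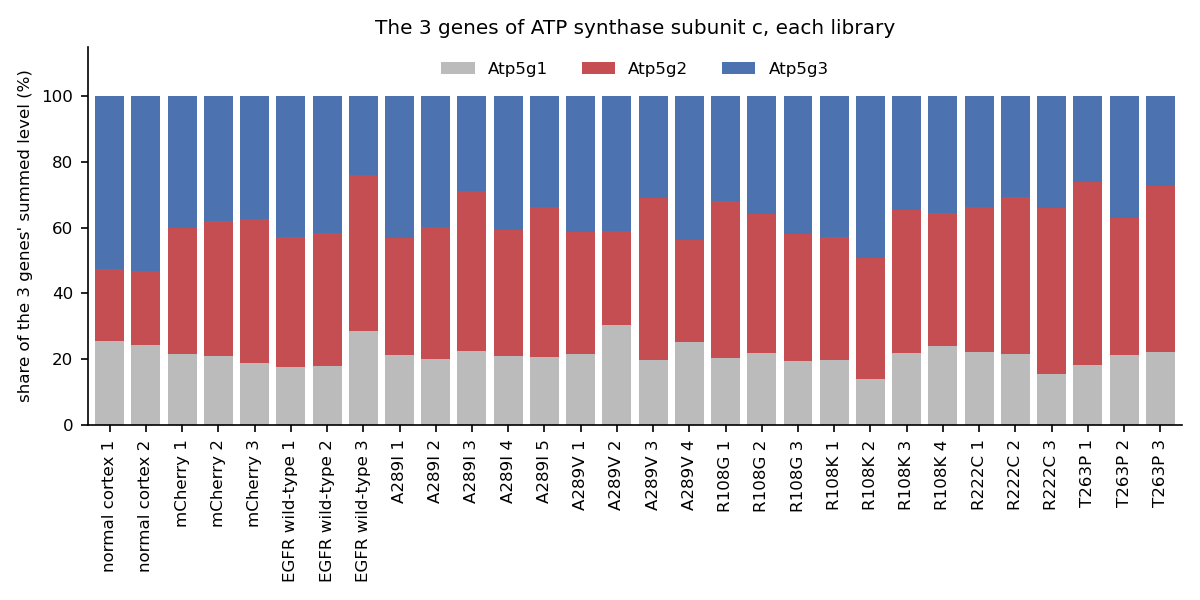
Share of each gene in the summed level of Atp5g1, Atp5g2 and Atp5g3 (percent, stacked, 1 bar per library). The red part, Atp5g2, is 21.8% and 22.5% in cortex and 28.4% to 55.5% in the tumours.

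Other genes of the pathway, taken from lists outside the name rule, were set beside the members. Of 11 respiratory genes with other names, 6 were lower and 1 higher in tumours than in cortex (24.5% and 22.9% of all genes). Their median log2 fold change was -0.71. Cox4i1, the main form of complex IV subunit 4, was 938 and 969 RPM in cortex and 333 to 703 RPM in tumours (log2 fold change -1.10 ± 0.22, adjusted p = 0.00026). Gpd2, the mitochondrial glycerol-3-phosphate dehydrogenase, and Usmg5, an ATP synthase subunit, fell by 1.75 and 1.71 on the log2 scale. Etfdh, which feeds electrons from fatty acid oxidation to ubiquinone, rose by 1.19 (35.9 and 33.2 RPM in cortex, 49.9 to 114.6 RPM in tumours, adjusted p = 9.9e-05). Of 42 tested assembly factors, 18 were lower and 0 higher (median -0.55), against 24.5% and 22.9% of all genes. Among those lower were Surf1 and Cox17 for complex IV (-1.26 and -1.32), Ndufaf3 for complex I (-1.63) and Ttc19 for complex III (-1.57).

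Enzymes of the tricarboxylic acid cycle and pyruvate entry followed a like count, with 10 of 17 lower and 1 higher (24.5% and 22.9% of all genes). Their median log2 fold change was -0.68. Sucla2, the ATP-forming succinyl-CoA ligase subunit, fell by 1.68, from 223 and 228 RPM to 36.7 to 154 RPM. The 1 gene that rose was Suclg2, the GTP-forming counterpart of Sucla2 (log2 fold change 0.73 ± 0.30, adjusted p = 0.045), named after its value was seen. Pcx, Idh3b and Dlat fell by 1.63, 1.35 and 1.24. Of 8 tested genes for ADP/ATP exchange, phosphate carriage and energy transfer, 4 were lower and 0 higher (24.5% and 22.9% of all genes). Ckmt1, the mitochondrial creatine kinase, had the largest difference (419.7 and 418 RPM in cortex, 0.806 to 231 RPM in tumours), followed by the channel Vdac1 and the carriers Slc25a4 and Slc25a3 (-1.03, -0.79 and -0.66).

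Of 17 tested regulators of mitochondrial gene expression, 5 were higher and 3 lower in tumours, which is near the share of all genes (22.9% higher and 24.5% lower). Nrf1, whose motif is printed above, was 15.5 and 13.4 RPM in cortex and 20.3 to 51.7 RPM in tumours (log2 fold change 1.23 ± 0.20, adjusted p = 2e-05). Pprc1, a coactivator of the same pathway, rose by 1.38 on the log2 scale. Esrra and Esrrg, nuclear receptors that bind respiratory gene promoters, fell by 1.40 and 2.30, from 84.9 and 84.0 RPM and from 24.8 and 27.7 RPM in cortex. The other genes that passed, named after their values were seen, were Gabpa, Gabpb1 and Polg (higher, 1.03, 0.76 and 0.96) and the coactivator Ppargc1a (lower, -1.66). Tfam, the mitochondrial DNA packaging factor, had a log2 fold change of -0.13 ± 0.31 (adjusted p = 0.76), also named after it was seen.

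Neuron content differed between cortex and tumours together with the respiratory chain genes. The neuron list's summed level was 21353 and 21329 RPM in cortex and 629.6 to 16039.9 RPM in tumours. With the list's mean as a covariate, 27 of 80 members were lower and 0 higher in tumours, where 3.92% of all genes were lower, and 23 and 0 in mCherry tumours, where 3.61% were. The members' median log2 fold change was -0.89 and -0.97 in these fits, against -0.82 and -0.89 without the covariate. The covariate's slope comes from differences within groups, and both cortex libraries lie above every tumour on it. These counts and medians therefore cannot measure the part of neuron content. Over the 28 tumours, which share the construct groups and the library ranges, the mean log2 level of the members and that of the neuron list had a Pearson r of -0.25 and a Spearman rho of -0.30, and r was -0.43 without A289V 1 and 2, the libraries farthest from the median. A289V 1 and 2, the tumours richest in neuron genes, had member means of 6.75 and 6.64, against 7.40 and 7.44 in cortex. The part of neuron content in the difference from cortex was not tested beyond these values. With tumours of library numbers 20 to 37 only (12 tumours), 55 of 79 members were lower and 0 higher, where 23.7% of all genes were lower. The ribosomal RNA gene Rn45s took 2.47% to 4.57% of the reads of these 12 tumours and 1.24% and 0.873% in cortex, and its part in the result was not tested.

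**Figure D5:**
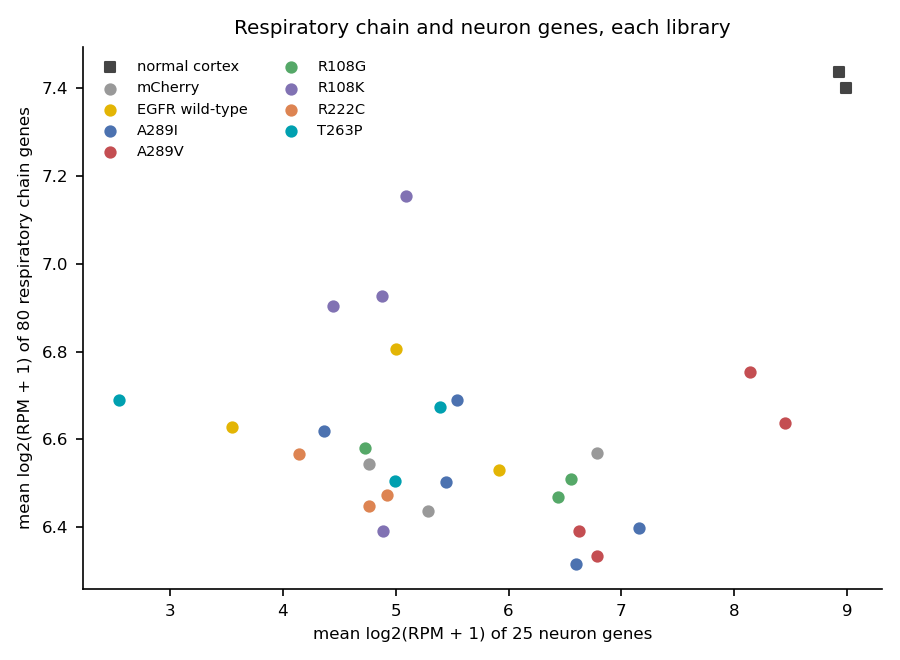
Mean log2(RPM + 1) of the 80 tested members (vertical) against that of 25 neuron genes (horizontal), 1 point per library, coloured by group, cortex as squares. The cortex libraries stand alone at the top right (7.40 and 7.44), and A289V 1 and 2 lie below them at neuron values of 8.14 and 8.45.

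The comparisons of the receptor forms with mCherry asked whether EGFR and its variants changed these genes within tumours. Wild-type EGFR tumours had 0 of 80 members called (0% of all genes were called). At an unadjusted p below 0.05, 4 members differed, all higher, against 2.70% of all genes, and edgeR and DESeq2 also called 0. These 4 included Uqcrb, 107.5, 90.1 and 89.1 RPM in mCherry and 141, 141 and 140 RPM in wild-type tumours (log2 fold change 0.56 ± 0.18, adjusted p = 1.0). Its groups did not overlap, and the wild-type libraries lay at the level of cortex. Ndufa5 and Ndufs6 had log2 fold changes of 0.75 and 0.54.

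In limma, A289V was the only form with a member called against mCherry. Sdha was 205, 198 and 179 RPM in mCherry tumours and 365, 445, 235 and 265 RPM in A289V tumours (log2 fold change 0.71 ± 0.21, adjusted p = 0.049), where 4.91% of all genes were called. A289V 1 and 2, the libraries rich in neuron genes, were the highest, and without them the log2 fold change was 0.36. The call was lost under 13 of 16 alternatives, among them edgeR, while DESeq2 also called Atp5sl (2 in all). A289I had 0 members called (0.607% of all genes), and 2 at an unadjusted p below 0.05, both lower, against 11.0% of all genes. edgeR called 0 there and DESeq2 1, Ndufs4 (log2 fold change -0.53 ± 0.16, adjusted p = 0.15 in limma). A289I against A289V gave 0 called (0% of all genes), 2 at an unadjusted p below 0.05 against 18.1% of all genes, and 0 by edgeR and DESeq2. Sdha and Atp5sl had log2 fold changes of -0.48 and -0.58 there.

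R108K tumours had the highest summed member levels, but with 1 library apart. R108K 1, 2 and 3 reached 18614, 15437 and 15164 RPM, above every other tumour, and R108K 4 was 10354 RPM, among the lowest. mCherry tumours were 11755, 12183 and 10720.5 RPM. Against mCherry, 77 of 80 members had a positive log2 fold change, against 50.1% of all genes. Their median was 0.32 (0.001 over all genes), but 0 passed (0.0695% of all genes were called). All members were measured in the same few libraries, so their signs are not separate results. At an unadjusted p below 0.05, 18 members differed, all higher, against 9.99% of all genes in either direction; edgeR called 0 and DESeq2 1, Uqcrb. Uqcrb was 180, 133, 151 and 110 RPM in R108K (log2 fold change 0.57 ± 0.17, adjusted p = 0.22). Ndufs6 and Ndufs8 had log2 fold changes of 0.64 and 0.70. Without R108K 1, the shallowest library, the median was 0.21, without R108K 4 it was 0.47, and scaled to library totals it was 0.21.

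R108K 1 was the highest of the 28 tumours for 39 of 80 members. How often it was highest over all genes was not counted, so 39 cannot be called particular to the members. The 77 ribosomal protein genes of R108K 1 were also the highest of all tumours, 74508 RPM in sum, followed by R108K 3 with 65692.5 and A289I 1 with 65656. Over the 28 tumours, the sums of the members and of the ribosomal protein genes had a Pearson r of 0.70 and a Spearman rho of 0.59, and r was 0.67 without A289V 2 and R108K 1, the libraries farthest from the median. Both sums come from the same libraries and share their depth and scaling. By library number range the member sum was 11685 to 18614 RPM below 20, 9943 to 15164 RPM from 20 to 37, and 9927 to 13610 RPM above 37. The part of depth or range in the R108K values was not tested beyond these values.

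R108G, the other change at the same residue, stood lower than R108K without a call. Its libraries summed to 11442, 11519.5 and 10869.7 RPM. Against R108K, 73 of 80 members had a negative log2 fold change, against 48.4% of all genes. Their median was -0.35 (0.017 over all genes), and 0 passed (0% of all genes). Here too the signs come from the same few libraries. At an unadjusted p below 0.05, 19 differed, all lower, against 9.92% of all genes; edgeR called 0 and DESeq2 1, Uqcrb. Uqcrb was 94.9, 97.4 and 84.1 RPM in R108G, below every R108K library (log2 fold change -0.62 ± 0.17, adjusted p = 0.24). Cox7c, a small complex IV subunit, was 191, 150 and 146 RPM in R108G and 328, 251, 277 and 192 RPM in R108K (log2 fold change -0.67 ± 0.19, adjusted p = 0.30). Against mCherry, R108G had 0 members called (0.0379% of all genes), 0 at an unadjusted p below 0.05 (8.40% of all genes) and 0 by edgeR and DESeq2.

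R222C and T263P gave no call against mCherry. R222C had 0 members called (0% of all genes) and 2 at an unadjusted p below 0.05, both lower, against 7.10% of all genes. Cox7a2, a complex IV subunit, was 109, 88.0 and 78.4 RPM there and 167, 160.1 and 151 RPM in mCherry (log2 fold change -0.80 ± 0.27, adjusted p = 0.49). T263P had 0 called (0.00632% of all genes) and 6 at an unadjusted p below 0.05, all higher, against 5.55% of all genes, led by Atp5o with a log2 fold change of 0.63 ± 0.26 (adjusted p = 0.88). edgeR and DESeq2 called 0 for both.

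Against wild-type EGFR, which shares its control libraries among these comparisons, 2 variants had members called. A289I had 2 lower (0.335% of all genes were called) and A289V 6, of which 5 were lower (13.7% of all genes). Ndufs4, a complex I subunit whose loss causes Leigh syndrome, was 105, 96.5 and 124 RPM in wild-type tumours and 58.5 to 71.4 RPM in the 5 A289I libraries (log2 fold change -0.73 ± 0.16, adjusted p = 0.048). In A289V it was 82.0, 75.1, 52.4 and 74.9 RPM (log2 fold change -0.61 ± 0.17, adjusted p = 0.02). Neither variant overlapped wild-type. Uqcrb was 77.6 to 94.7 RPM in A289I (log2 fold change -0.71 ± 0.16, adjusted p = 0.049) and 112, 96.5, 81.6 and 92.1 RPM in A289V (log2 fold change -0.56 ± 0.17, adjusted p = 0.027), both below the 3 wild-type libraries. Cox7c, Ndufc1 and Ndufs6 were also lower in A289V, by 0.63, 0.64 and 0.60 on the log2 scale. Atp5sl was higher, with 39.3, 37.2, 20.1 and 23.7 RPM against 14.2, 9.35 and 23.1 RPM (log2 fold change 0.94 ± 0.28, adjusted p = 0.03).

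These calls depended on single libraries. In edgeR, DESeq2, TMM and library totals both A289I calls were kept. Of the 6 in A289V, Ndufs6 alone was lost among these settings, in edgeR. Without A289V 1 and 2 none of the 6 passed, and with a term for the library ranges Ndufs4 alone did. For A289I, leaving out A289I 1 gave 3 calls, Cox7c besides these 2, and leaving out any other single library of either group gave 0. For A289V, leaving out A289V 2 or EGFR wild-type 2 gave 0. The other variants had 0 members called against wild-type EGFR, as had 0% of all genes in each of these comparisons, and edgeR and DESeq2 called 0 as well. At an unadjusted p below 0.05 the counts were 7 of 80 for R108G, all lower (8.51% of all genes), 3 for R108K, all higher (5.44%), 8 for R222C, all lower (5.03%), and 1 for T263P, lower (3.93%). Uqcrb and Ndufs4 led in R108G (log2 fold changes -0.61 and -0.55), Cox7a2 in R222C (-0.89), Ndufs8 in R108K (0.59) and Ndufc1 in T263P (-0.46).

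Across the 8 tumour groups, an F-test in limma called 3 members, Uqcrb (adjusted p = 0.013), Ndufs4 (adjusted p = 0.02) and Cox7c (adjusted p = 0.025), where 10.3% of all genes were called. Group means of Uqcrb ran from 85.5 RPM ± 7.40 in A289I (SD, n = 5) through 92.1 ± 7.06 in R108G, 95.6 ± 10.4 in mCherry, 95.7 ± 12.8 in A289V, 108.04 ± 6.87 in R222C and 127 ± 24.5 in T263P to 140.6 ± 0.45 in EGFR wild-type and 144 ± 29.3 in R108K. Neighbours in that order from A289I to A289V lie within their spread. Ndufs4 had its lowest mean in A289I (64.5 RPM ± 5.20) and its highest in EGFR wild-type (108.3 ± 13.9) and R108K (103 ± 16.4), and Cox7c likewise ranged from 156 RPM ± 31.7 in A289I to 262 ± 56.8 in R108K. Of their 50-base words, 43.2% in Uqcrb and 53.0% in Cox7c also occur in other genes, and none in Ndufs4. With a term for the library ranges, with the neuron list as a covariate, or without A289V 1 and 2, the F-test called 0 members. edgeR called 5 and DESeq2 11, each including these 3. Their shares of all genes called are not given here, so 5 and 11 cannot be read against a background. All A289I and R108G libraries carry numbers above 37 and all R222C and T263P libraries numbers from 20 to 37, so that for these groups the range term rests on the libraries of mCherry, EGFR wild-type, A289V and R108K, which span ranges.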

How the data were processed

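The authors deposited a normalised signal for each gene. Within 0.05 of a read, at least 99.9959% of a library's values came to whole reads after division by 1 constant. They are named RPM, but a library's sum is 9.31 to 12.0 times that of true RPM, which makes them size-factor-normalised counts. All were divided by 10.2638 and called RPM. The submitters' processing notes name FastQC, STAR 2.5.0a, mm10 and DESeq2 1.20.0 without roles. On log2(RPM + 1), means of the 9 groups over 30 libraries were fitted with limma 3.58.1 under R 4.3.3 (eBayes, trend and robust, two-sided). p-values were adjusted over 15824 genes. As alternatives, edgeR 4.0.16 and DESeq2 1.42.0 tested the recovered reads. Other alternatives were a pseudocount of 0.1 RPM, no filter, TMM, a term for library ranges, the neuron list as covariate, only library numbers 20 to 37, and each library left out. Leaving out A289V 1 and 2 and scaling to library totals were added after seeing the data. Positions, transcripts and shared 50-base words came from GENCODE M21, promoters from RefSeq. Depth per library is that of the recovered reads.

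Members and lists were chosen with earlier results of these data known. Named were, for cortex comparisons, 8 core subunits and the isoform families, per comparison the 5 largest called changes each way with at least 5 RPM in the higher group (or the 3 smallest p), the 8 smallest p of the F-test, the ends per kilobase and up to 4 genes per list. Ndufs7, Atp5d and some members that did not pass fall outside these rules and were named with their values known. For Ndufs7 and Atp5d no alternatives are given. Of the marker lists not described above, tumours against cortex gave 5 of 7 parvalbumin interneuron, 7 of 10 myelinating oligodendrocyte, 3 of 8 astrocyte, 1 of 8 endothelium, 1 of 1 red blood cell and 4 of 5 muscle genes lower, and 1 astrocyte, 2 endothelium and 5 of 7 T and NK cell genes higher. Among all genes, 24.5% were lower and 22.9% higher in tumours than in cortex. The lists share genes with tumour cells and tissue.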

Additional observations from a re-analysis of the deposited data

Results flagged for a closer look

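In groups of 4 or 5 libraries, 1 library stood far from the others in 14 of 147 sets of values. Chance flags about 1 in 20 single sets. These sets share libraries, and complex sums contain their member genes, so 14 cannot be read against that rate. In A289I, library 1 was high for the summed complex II genes (766 RPM, the others 633 to 661), Atp5b (1763 RPM, 857 to 1081), Atp5g3 (340.5 RPM, 196 to 235) and Uqcrc1 (299.7 RPM, 183 to 210.2). Library 3 of A289I was high for Cox7b (254 RPM, 105 to 139.5), Ndufa4 (329 RPM, 158 to 197.5), Ndufa5 (92.8 RPM, 50.3 to 57.3) and Uqcrh (205 RPM, 155 to 168).

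In R108K, library 4 was low for Atp5b (843 RPM, the others 1437 to 1474) and Cox7b (81.8 RPM, 369.9 to 413), and library 2 was high for the muscle-type Cox7a1 (6.13 RPM, 0.754 to 1.15) and Cox8b (2.80 RPM, 0 to 0.383). In A289V, Cox6a2 was highest in library 4 (3.52 RPM, 1.89 to 1.97) and Cox7a2l lowest in library 3 (161.5 RPM, 179 to 182).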

How the results depend on the processing

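Against cortex 0 members were called higher in any alternative except Atp5g2 with library totals (all tumours, 48 lower and 1 higher). Against mCherry and cortex, the neuron list as covariate gave 23 (mCherry over cortex) and 27 (tumours over cortex) calls, against 54 and 61, and library totals gave 35 for mCherry. With 1 library left out, counts were 26 to 52 for mCherry and 36 to 66 for all tumours, lowest without cortex 2. The share of all genes called is not given for fits with 1 library left out or for edgeR and DESeq2. Member counts from these fits cannot be read against it. Against mCherry, A289I had 1 call and R108K 1 in DESeq2. For A289V the 1 call became 0 with the pseudocount of 0.1 RPM, no filter, TMM, the range term, the neuron covariate, edgeR, library totals or without A289V 1 and 2, and 2 in DESeq2 (0 to 2 with 1 library left out). Against EGFR wild-type, the 2 calls of A289I became 0 with the pseudocount, no filter, the range term or the neuron covariate (0 to 3 with 1 library left out), and the 6 of A289V became 1 with the range term and 0 with the neuron covariate or without A289V 1 and 2 (0 to 4 with 1 left out). R108G against R108K had 1 call in DESeq2. The F-test gave 0 with the range term, the neuron covariate or without A289V 1 and 2, 5 in edgeR and 11 in DESeq2 (1 to 11 with 1 left out). The cause was not tested.

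Values that changed sign were of uncalled members. For mCherry over cortex these were Ndufa4l2 (-0.0482 with the pseudocount, -0.54 with the range term, -0.50 with the neuron covariate, -0.7813 to 0.5995 with 1 library left out), Cox6b2 (0.10 with the range term), Cox7b2 (0.39 with the range term, 0.028 with library totals, -0.3615 to 0.2122 left out), Sdhb (0.1937 with library totals, -0.2759 to 0.017 left out, highest without mCherry 2) and Atp5g2 (-0.35 with the neuron covariate). For all tumours they were Sdhb (0.1529 with library totals), Ndufa4l2 (0.1492 with library totals, 0.0586 with library numbers 20 to 37, 0.11 in edgeR, 0.11 in DESeq2, -0.1403 to 0.0323 left out), Cox6b2 (0.0855 with the range term) and Atp5g2 (-0.19 with the neuron covariate). Atp5a1 in R222C over mCherry (0.11) and Atp5sl in A289I over A289V (0.10) changed sign with the range term. No paired analysis was possible because the labels give no replicate numbers shared by groups. Levels below about 1 RPM rest on few reads.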
